A study of Mus musculus with 12 samples.

Results

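The bone morphogenetic protein (BMP) ligands Bmp2, Bmp4 and Bmp7, the BMP target genes Id1 to Id4, and the feedback inhibitors Smad6, Smad7 and Bambi were followed in mouse embryonic stem (ES) cells. The 10 genes were picked by symbol, each had a single transcript model in the deposited tables, and they are 10 of 22878 gene symbols measured. Polyadenylated RNA was sequenced in 12 libraries of 3 genotypes. WT cells were compared with SUV420H2 KO cells (KO) and with cells labelled SUV420H1_H2 DKO (DKO). Both enzymes place the higher methylation states on lysine 20 of histone H4. Each genotype had 2 ES libraries, replicates 1 and 2, and 1 library each at days 8 and 12 of differentiation. The ES cells had been moved off feeder cells onto gelatin in medium with 1.5 µM CHIR9901, named in the labels as an inhibitor of GSK3. The inhibitor is listed at 1.5 µM for all 12 libraries, the differentiated ones included. The labels used here give no strain, no number of clones per genotype and no other detail of the differentiation medium. They also do not say whether the replicates were separate cultures. For ES cells the p-values below therefore measure the spread between these libraries, which may be technical. For differentiated cells the spread is what remains after a day change shared by the 3 genotypes, not a spread between replicates. The fit over all 12 libraries, used for the change during differentiation, pools both.

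BMP ligands are secreted dimers that bind type I and type II serine/threonine kinase receptors, which phosphorylate Smad1, Smad5 and Smad9. With Smad4 these enter the nucleus and switch on the Id genes, among the most direct BMP targets. Id proteins have a helix-loop-helix domain without a DNA-binding region, pair with E proteins and keep these from binding DNA. In mouse ES cells BMP4 acting through Id proteins is known to hold back neural differentiation alongside LIF. Smad6, Smad7 and the decoy receptor Bambi are themselves induced by the pathway and dampen it.

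Windows of 250 bases before the annotated start were available from RefSeq (build GRCm38.p6) for 5 of the 10 genes, and all 5 are shown because Id2, Id3 and Id4 rose together in DKO ES cells while Bmp4 and Smad6 were among the largest changes in KO ES cells. The windows are Id2 at chr12:25096093-25096342 on the minus strand, Id3 at chr4:136143572-136143821 on the plus strand, Id4 at chr13:48260866-48261115 on the plus strand, Bmp4 at chr14:46390670-46390919 on the minus strand and Smad6 at chr9:64022060-64022309 on the minus strand. They run 5′ to 3′ on the gene's strand, and capitals mark the GC-rich hexamers GGCGCC and GGAGCC (searched on both strands, the latter also as GGCTCC), which BMP-activated Smads are known to bind.
Id2: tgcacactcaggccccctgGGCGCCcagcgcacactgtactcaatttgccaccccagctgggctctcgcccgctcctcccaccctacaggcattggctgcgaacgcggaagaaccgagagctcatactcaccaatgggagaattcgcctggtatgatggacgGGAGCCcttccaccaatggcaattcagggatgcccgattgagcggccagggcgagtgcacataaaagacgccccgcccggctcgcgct
Id3: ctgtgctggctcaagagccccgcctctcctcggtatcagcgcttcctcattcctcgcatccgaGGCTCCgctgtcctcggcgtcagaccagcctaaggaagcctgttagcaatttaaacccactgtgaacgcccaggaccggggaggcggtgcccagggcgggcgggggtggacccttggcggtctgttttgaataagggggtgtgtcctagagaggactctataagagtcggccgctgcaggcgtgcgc
Id4: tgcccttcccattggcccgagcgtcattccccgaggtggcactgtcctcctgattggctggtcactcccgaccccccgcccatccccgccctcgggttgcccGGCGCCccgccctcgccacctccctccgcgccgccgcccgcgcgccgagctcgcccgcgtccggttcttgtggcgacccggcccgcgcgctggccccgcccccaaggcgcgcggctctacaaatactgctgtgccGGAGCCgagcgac
Bmp4: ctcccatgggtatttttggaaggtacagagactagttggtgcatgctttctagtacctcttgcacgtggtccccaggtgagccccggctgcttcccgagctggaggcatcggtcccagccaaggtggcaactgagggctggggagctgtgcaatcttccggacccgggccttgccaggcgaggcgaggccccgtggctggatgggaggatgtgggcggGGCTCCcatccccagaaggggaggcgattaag
Smad6: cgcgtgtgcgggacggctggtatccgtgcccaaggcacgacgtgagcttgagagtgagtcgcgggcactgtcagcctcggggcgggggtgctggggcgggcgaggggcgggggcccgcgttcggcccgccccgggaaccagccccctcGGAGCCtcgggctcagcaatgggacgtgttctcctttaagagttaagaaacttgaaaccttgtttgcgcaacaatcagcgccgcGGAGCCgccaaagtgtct
GGCGCC stood once in the Id2 window and once in the Id4 window, against 9.59% of 32851 RefSeq windows of this length that hold it. GGAGCC stood in all 5 windows, 2 times in Smad6 and once in the others, against 26% of all windows. No matches overlapped each other. The palindrome GTCTAGAC, a Smad3 and Smad4 element, was in none of the 5 and in 0.167% of all windows. The windows held between 62.8% (Id2 and Id3) and 75.6% (Id4) G and C, above the median of 52.4% over all windows, and the part of base composition in the motif counts was not tested. A match is a run of letters and no binding was measured. Bmp2, Bmp7, Id1, Smad7 and Bambi have no window here.

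Levels below are RPKM values (reads scaled to transcript length and library depth), computed here from the deposited counts with TMM scaling (a correction for library make-up) over the 12 libraries, so that levels of different genes can be set side by side. Libraries held 22542052 reads in genes at the least (KO day 8) and 26677968 at the most (WT day 12). Suv420h2 in ES cells was at 54.4 and 49.3 RPKM in WT, 15.7% of that mean in KO and 16.4% in DKO. Suv420h1 in DKO ES cells was at 139.5% of WT, and counts over whole transcripts neither show nor exclude a knockout made by deleting exons. The 8 ES cell markers summed to between 3500 and 5371 RPKM in the 6 ES libraries, none of them at 0. This does not set ES cells apart in DKO, whose day 8 sum of 3798 RPKM lay in the same range. Zfp42 was at 130 and 150 RPKM in KO and 168 and 168 in DKO ES cells against 1434 and 1353 in WT. In DKO ES cells Nanog (151 and 133 against 288 and 306 RPKM in WT) and Dppa5a (211 and 192 against 519 and 490) were also lower. Esrrb and Klf4 were higher there than in WT. In KO ES cells Nanog (831 and 798.5 RPKM), Dppa5a (987 and 886.5) and Tdgf1 (458 and 463 against 387 and 372.5 in WT) were higher than in WT. Sox2, Esrrb and Klf4 were lower in both KO libraries than in both WT libraries. In differentiated cells the sum of the 8 markers was 382 (day 8) and 337 (day 12) in WT, 2596 and 1162 in KO, and 3798 and 1872 in DKO. The part of this difference in the differentiated results below was not tested. These are bulk samples, in which fewer cells of a type and less RNA per cell cannot be told apart.

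In WT ES cells Id1 was the highest of the 10 genes and Bmp4 the next. Id1 was at 158 and 154 RPKM, Bmp4 at 94.3 and 102 RPKM, Smad7 at 66.1 and 66.0 RPKM and Id3 at 56.4 and 56.1 RPKM. Each of these neighbours was separated by more than the gap between the 2 replicates. The lower genes were Id2 (9.76 and 8.91 RPKM), Id4 (8.13 and 7.43 RPKM), Bmp7 (5.09 and 5.27 RPKM), Smad6 (4.12 and 3.85 RPKM) and Bambi (3.17 and 2.95 RPKM). This order was the same in both WT replicates, and among these neighbours only Id2 and Id4 lay closer to each other than the 2 replicates of Id2. Bmp2 was nearly absent, with 5 and 7 reads (exact 95% Poisson intervals 1.62 to 11.7 and 2.81 to 14.4, counting error only), or 0.0823 and 0.112 RPKM. Bmp4 thus made up 94.8% and 95% of the summed level of the 3 ligands.

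**Figure D1:**
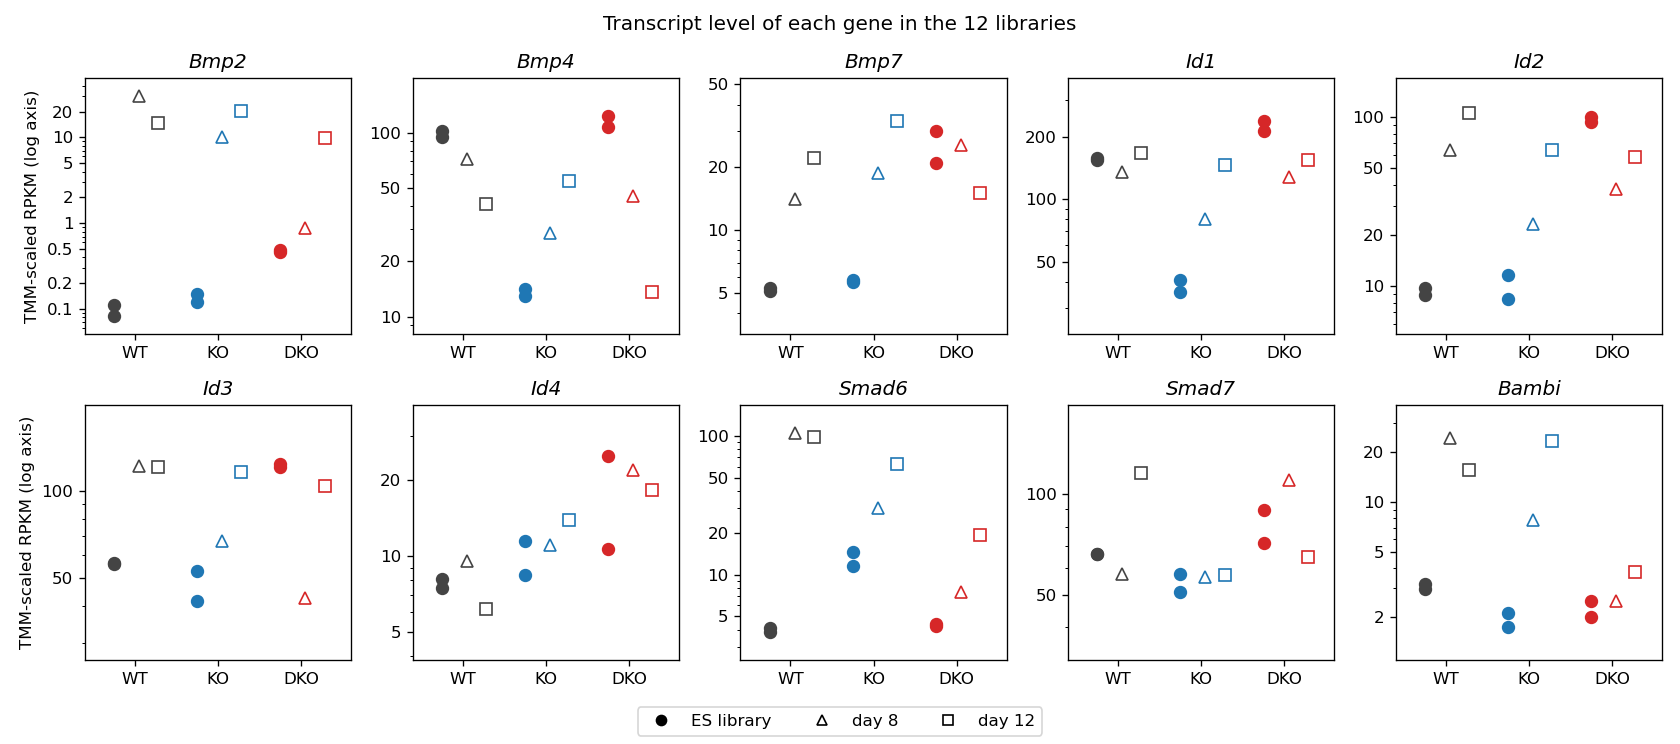
Level of each gene in the 12 libraries, in TMM-scaled RPKM on a log axis, by genotype. Filled circles are single ES libraries, open triangles day 8 and open squares day 12. Id1 was lowest in the KO ES libraries, Bmp4 in these (12.9 and 14.2 RPKM) and in DKO day 12 (13.6 RPKM), Id2 in DKO ES libraries (100 and 93.5 RPKM) lay just under WT day 12 (106 RPKM), and Bmp2, Smad6 and Bambi were highest at day 8 of WT.

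KO ES cells held far less Bmp4 and Id1 than WT and more Smad6. Bmp4, the main BMP ligand of these cells, was at 12.9 and 14.2 RPKM in KO against 94.3 and 102 in WT, or 13.8% of the WT mean. Its log2 fold change was -2.85 (SE 0.13, edgeR adjusted p = 1.8e-08). Bmp4 lies on chromosome 14, whose 433 tested genes had a median log2 fold change of -0.53 in the same comparison against -0.01 over all genes. How far the shift of the chromosome enters the Bmp4 value was not tested. Gm15217, which overlaps Bmp4 in RefSeq, was at 2.09 and 3.04 RPKM in WT and 0.493 and 0.193 RPKM in KO. Whether counting used strand is not given, so reads of the pair cannot be told apart. Bmp7, Id4 and Smad7 also overlap RefSeq genes (Gm40010, A330033J07Rik and Gm41776), which have no counts here. The same limit holds for their values.

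Id1 fell from 158 and 154 RPKM to 35.9 and 40.7 RPKM in KO ES cells (log2 fold change -2.02, SE 0.12, adjusted p = 2.2e-07). Genes on chromosome 2, where Id1 lies, had a median of 0.03. The other Id genes overlapped or nearly met WT. Id2 was at 8.36 and 11.6 RPKM (log2 fold change 0.10, adjusted p = 0.65) and Id4 at 11.5 and 8.38 RPKM (0.36, adjusted p = 0.38). Id3 was at 41.8 and 53.2 RPKM, below both WT libraries but within the test's error (-0.24, SE 0.13, adjusted p = 0.17). Summed over the 4 genes, Id transcripts were at 97.5 and 114 RPKM in KO against 233 and 226 in WT, and the share of Id1 in that sum was 36.8% and 35.7% against 68.1% and 68%. Id3 rather than Id1 was therefore the leading Id transcript of KO ES cells.

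Smad6, an inhibitory Smad that competes for BMP receptors and for Smad4, moved the other way. It was at 11.6 and 14.6 RPKM in KO ES cells, 3.28 times the WT mean (log2 fold change 1.72, SE 0.16, adjusted p = 6.6e-06). Marker sums of other cell types were also higher in the same KO libraries. The 5 endothelium markers summed to 65.9 and 58.7 RPKM against 27.2 and 26.8 in WT, the 6 trophoblast markers to 72.1 and 71.9 against 41.9 and 41.3, the 5 neural markers to 241 and 292 against 171 and 178, and the 6 cardiac markers to 11.6 and 11 against 5.78 and 5.53. The endothelium, trophoblast and neural sums in KO were each mostly 1 gene, Pecam1 (62.5 and 55.8 RPKM), Tfap2c (62.5 and 60.5) and Tubb3 (208 and 254). Among the other members, Tek, Gata3, Hand1, Nes, Myl7 and Nkx2-5 were higher in both KO libraries than in both WT libraries. Cdx2, Sox1, Pax6, Neurod1 and Myh6 were lower in both. The part of these markers in the KO values was not tested. Smad7, which also blocks TGF-beta receptors, was at 50.9 and 57.6 RPKM, below both WT libraries, and was not called (-0.28, SE 0.13, adjusted p = 0.1). Bambi fell from 3.17 and 2.95 to 1.76 and 2.13 RPKM (-0.65, SE 0.19, adjusted p = 0.016). This call did not hold without WT replicate 1 (adjusted p = 0.1), WT replicate 2 (0.052) or KO replicate 1 (0.14), or in a fit over all 12 libraries (0.35). Bmp7 was at 5.62 and 5.75 RPKM (0.14, adjusted p = 0.58).

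Of the 9 genes tested in KO ES cells, 1 rose and 3 fell, 4 of 9, where 42.7% of all 12046 genes tested were called (23.5% higher, 19.2% lower). The share called is thus close to that of genes in general. The median log2 fold change of the 9 was -0.24 against -0.01 over all genes. Bmp2 was not tested, having 9 and 7 reads in the KO libraries. The count over all genes was 5138, and it was 3393, 3337 and 3203 without WT replicate 1, WT replicate 2 or KO replicate 2.

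In DKO ES cells the Id genes and Bmp7 were higher than in WT. Id2 was the largest change, from 9.76 and 8.91 RPKM in WT to 100 and 93.5 RPKM in DKO, 10.4 times the WT mean (log2 fold change 3.38, SE 0.17, adjusted p = 1.4e-08). Id3 rose from 56.4 and 56.1 to 121 and 123 RPKM (1.13, SE 0.13, adjusted p = 1.3e-05). Id1 rose least of the 4, to 239 and 214 RPKM (0.54, SE 0.12, adjusted p = 0.0014). For each of these genes both DKO libraries lay above both WT libraries. Id4 was at 24.99 and 10.7 RPKM against 8.13 and 7.43 in WT (1.20, SE 0.31, adjusted p = 0.0047). Its DKO libraries differed from each other by more than the lower one differed from WT, and without DKO replicate 1 the value was 0.50 (adjusted p = 0.043).

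The summed Id level of DKO ES cells, 484 and 441 RPKM, was the highest of all 12 libraries. Id2 made up 20.7% and 21.2% of it, against 4.2% and 3.93% in WT ES cells. Id1 remained the leading Id transcript, at 49.3% and 48.4% of the sum.

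**Figure D2:**
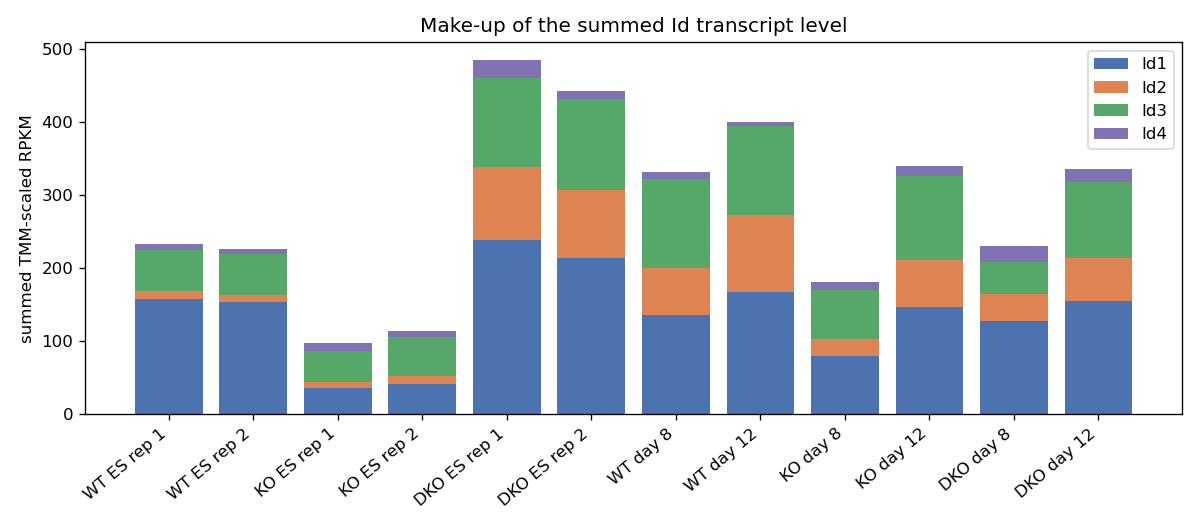
Summed level of Id1 to Id4 in each library, in TMM-scaled RPKM, stacked by gene. The KO ES libraries have the lowest sums (97.5 and 114), the DKO ES libraries the highest (484 and 441), and the differentiated libraries lie between 181 (KO day 8) and 400 (WT day 12).

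Among the ligands, Bmp7 rose in DKO ES cells from 5.09 and 5.27 to 29.8 and 21.1 RPKM (log2 fold change 2.30, SE 0.18, adjusted p = 5.4e-07), and its share of the summed ligand level was 19.4% and 16.4% against 5.12% and 4.91% in WT. Bmp4 was at 123 and 107 RPKM, above both WT libraries, and was not called (0.24, SE 0.12, adjusted p = 0.096). Bmp2 had 26 and 30 reads against 5 and 7 in WT, or 0.461 and 0.485 RPKM. It was below the filter on low values, and with no filter its log2 fold change was 2.24 (SE 0.79, adjusted p = 0.016). No feedback gene was called. Smad6 was at 4.41 and 4.25 RPKM (0.13, adjusted p = 0.52), Smad7 at 89.8 and 71.4 RPKM, above both WT libraries (0.29, adjusted p = 0.06) and Bambi at 2.01 and 2.52 RPKM (-0.42, adjusted p = 0.065). Smad7 was called by DESeq2 (adjusted p = 0.043) and with a filter at 5 RPKM (0.04). Genes on chromosome 18, where Smad7 and Bambi lie, had a median of 0.21 in DKO against WT, and the part of this shift was not tested. Without DKO replicate 2, Bmp4 (0.37, adjusted p = 0.0063), Smad7 (0.49, adjusted p = 0.00066) and Bambi (-0.56, adjusted p = 0.031) were called, which made 8 genes called instead of 5.

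**Figure D3:**
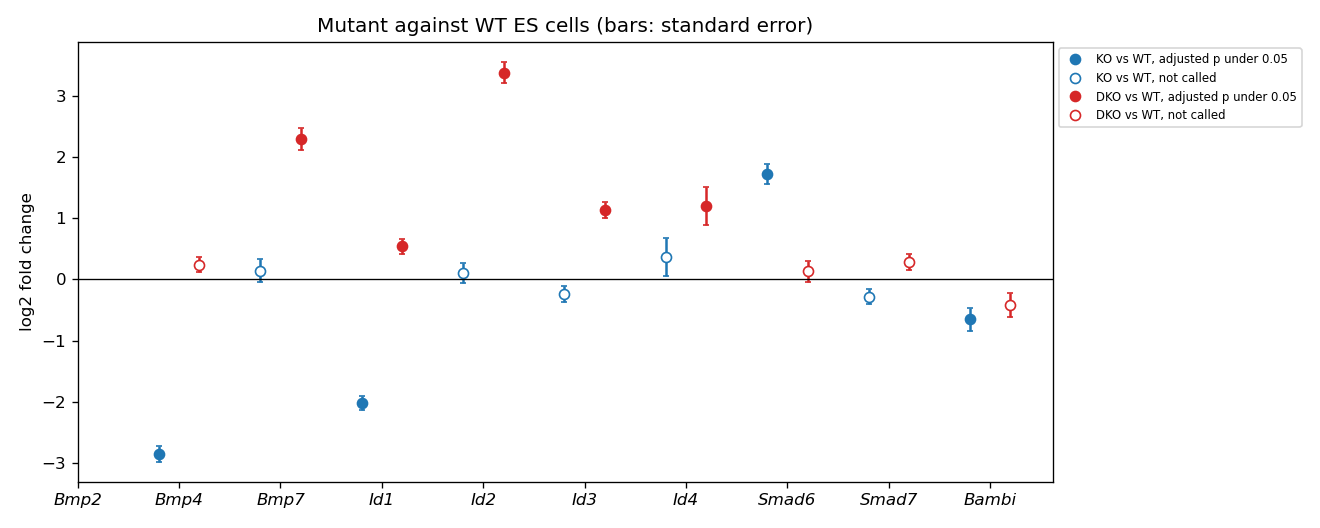
Log2 fold change of each gene in KO and DKO ES cells against WT, with standard errors (edgeR, 2 libraries per genotype). Filled points had an adjusted p under 0.05. Bmp4 (-2.85) and Id1 (-2.02) lie far below 0 in KO, Id2 (3.38) and Bmp7 (2.30) far above 0 in DKO, and Smad6 (1.72) above 0 in KO. Bmp2 was not tested.

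Of the 9 genes tested in DKO ES cells, 5 rose and none fell. Of all 12046 genes 63.8% were called, 32.2% higher and 31.6% lower, so 5 of 9 called is close to the background. Their median log2 fold change was 0.54 against -0.01 over all genes. KO and DKO share the 2 WT libraries, and their values for a gene are therefore not independent.

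Set directly against KO, DKO ES cells were higher in 7 of the 9 genes and lower in 1, where 67.3% of all genes were called (33.2% higher, 34% lower). The log2 difference was 3.08 for Bmp4 (SE 0.13, adjusted p = 2.9e-09), 3.28 for Id2 (SE 0.16, adjusted p = 1.1e-08) and 2.56 for Id1 (SE 0.12, adjusted p = 8.8e-09). Bmp7 was higher by 2.16 and Id3 by 1.36. Smad6 was lower in DKO than in KO (-1.59, SE 0.16, adjusted p = 3.3e-06). Smad7 was higher by 0.57 (adjusted p = 0.0017), which was not called in the fit over all 12 libraries (adjusted p = 0.2). The median of its chromosome, 18, was 0.27 in this comparison, and that of chromosome 14, where Bmp4 lies, was 0.60. The part of these shifts in the values was not tested. The call for Id4 (0.84, adjusted p = 0.028) rested on DKO replicate 1, without which it was 0.14 (adjusted p = 0.57), and was also lost without either KO replicate (adjusted p = 0.065 without replicate 1 and 0.25 without replicate 2). Without DKO replicate 2 it was 1.37 (adjusted p = 7.6e-06). The median over the 9 genes was 1.36 against -0.02 over all genes.

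The rest of the pathway was read from lists of receptors, Smads, antagonists, further ligands and further targets. Their counts stand against the shares of all genes given above, and a gene low in WT passed the filter on low values only where a mutant held more reads, so counts and medians of these lists lean towards rises. Of the Smads that carry the signal, Smad1, Smad5 and Smad4 were lower in KO and higher in DKO ES cells. Smad9 was too low to be tested, at 0.28 and 0.21 RPKM in WT, 0.12 and 0.097 in KO and 0.05 and 0.045 in DKO. Smad1 was at 14.1 and 13.4 RPKM in WT, 9.82 and 9.33 in KO and 33.4 and 30.2 in DKO (log2 fold changes -0.51, adjusted p = 0.0054, and 1.22, adjusted p = 3.7e-06). Smad5 changed by -0.75 (adjusted p = 0.00088) and 0.58 (adjusted p = 0.0026), and the shared partner Smad4 by -0.42 (adjusted p = 0.025) and 0.46 (adjusted p = 0.0095). Smurf2, a ubiquitin ligase that marks Smads and receptors for degradation, was higher in both (0.45, adjusted p = 0.0073, and 0.28, adjusted p = 0.045). Of the 5 tested of 6 Smads and Smurfs, 1 was higher and 3 lower in KO, and all 5 were higher in DKO (of all genes, 23.5% rose and 19.2% fell in KO, and 32.2% rose and 31.6% fell in DKO). The list's median was -0.42 in KO and 0.46 in DKO.

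Among 9 of 11 receptors and coreceptors tested, 3 were higher and 1 lower in KO ES cells, and 6 were higher and 1 lower in DKO, where 42.7% and 63.8% of all genes were called. The coreceptor Eng rose in both (1.50, adjusted p = 5.5e-06, and 0.91, adjusted p = 0.00011), as did Rgma, a coreceptor for BMPs (1.78, adjusted p = 0.00045, and 1.0, adjusted p = 0.012). Rgma, at 0.969 and 0.605 RPKM in WT, passed the filter only through the KO libraries (3.21 and 2.15 RPKM). The type II receptor Acvr2a (1.02, adjusted p = 9.3e-05) and the coreceptor Rgmb (1.0, adjusted p = 0.00065) rose in DKO. In KO their values were 0.15 (adjusted p = 0.46) and 0.32 (adjusted p = 0.21). Bmpr1a, the main type I receptor for BMP2 and BMP4 and named here after its values were seen, was at 19.6 and 20.9 RPKM in WT, 14.2 and 13.7 in KO and 28.1 and 36.8 in DKO. Its single lower call in KO was -0.53 (adjusted p = 0.0074), and in DKO it was higher by 0.69 (adjusted p = 0.00074). Shifts by chromosome, given above for Bmp4, were not looked at for the listed genes.

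Extracellular antagonists bind BMPs or related ligands outside the cell. Of 8 of 16 tested, 6 rose and none fell in DKO (median 1.59), where 32.2% of all genes rose, and 4 rose and 2 fell in KO (median 0.44), where 23.5% rose and 19.2% fell. Nog, Fst, Dand5, Nbl1 and Fstl3, all low in WT, passed the filter only through mutant libraries. Fst, follistatin, was at 0.885 and 1.08 RPKM in WT, 1.05 and 0.928 in KO and 10.4 and 11.5 in DKO (log2 fold change in DKO 3.48, adjusted p = 7.9e-08). Nog, which encodes the BMP antagonist noggin, rose in both, to 2.59 and 2.35 RPKM in KO and 3.95 and 2.92 in DKO from 0.388 and 0.46 in WT (2.54 and 3.01, adjusted p = 6.6e-05 and 6.5e-06). Dand5, an antagonist of Nodal and BMPs, also rose in both (1.61, adjusted p = 0.00024, and 2.10, adjusted p = 1.3e-05). Fstl1 fell in KO (-0.88, adjusted p = 0.00011) and rose in DKO (1.08, adjusted p = 9.1e-06).

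Further ligands were called in one or both mutants. Gdf6, a BMP-family ligand of the joint and eye, had no reads in the WT and KO ES libraries and was at 3.95 and 3.54 RPKM in DKO, at least 108-fold higher than WT at a floor of 3 reads per library. Gdf7 rose in DKO (2.57, adjusted p = 4.7e-06), and its KO value was -0.67 (adjusted p = 0.092). Bmp6 rose in KO (2.17, adjusted p = 3.7e-05) and fell in DKO (-0.87, adjusted p = 0.019), and Bmp8a rose in both (2.22, adjusted p = 9.7e-05, and 0.80, adjusted p = 0.043). Of 5 of 11 ligands tested, 2 rose and none fell in KO, and 3 rose and 2 fell in DKO, where 42.7% and 63.8% of all genes were called. Gdf6, Bmp6 and Bmp8a were absent or low in WT. Gdf6 passed the filter only through the DKO libraries, and Bmp6 and Bmp8a only with the KO libraries.

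Dusp9 and Hand1, other BMP-responsive genes, were higher in KO ES cells. Dusp9, an ERK phosphatase known as a BMP4 target in ES cells, was at 131 and 125 RPKM in WT, 378 and 413 in KO and 296 and 308 in DKO (1.64, adjusted p = 4.1e-07, and 1.25, adjusted p = 1.1e-06). Hand1, a mesoderm and trophoblast factor, was at 0.458 and 0.318 RPKM in WT, 3.02 and 3.38 in KO and 2.09 and 1.99 in DKO (3.05 and 2.40, adjusted p = 1.7e-05 and 5.5e-05). Bmp4 and Id1 were lower in the same KO libraries. Gata2 rose in DKO (2.24, adjusted p = 8.3e-07) with 0.11 (adjusted p = 0.69) in KO, and Msx2 fell in DKO (-0.62, adjusted p = 0.034) with -0.50 (adjusted p = 0.11) in KO. Of 4 of 8 tested, 2 rose and none fell in KO, and 3 rose and 1 fell in DKO, where 42.7% and 63.8% of all genes were called. Hand1 passed the filter through the mutant libraries. The E proteins, the partners of Id proteins, moved apart from each other. Tcf12 was higher in both (0.80, adjusted p = 0.0013, and 1.84, adjusted p = 9.6e-07), Tcf4 was lower in KO (-1.84, adjusted p = 7.3e-06) with -0.21 (adjusted p = 0.28) in DKO, and Tcf3 was lower in DKO (-0.81, adjusted p = 0.00014) with -0.29 (adjusted p = 0.087) in KO.

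When WT cells differentiated, Bmp2, Smad6 and Bambi came up from low levels, with Id2, Id3 and Bmp7. Bmp2, a ligand of visceral endoderm and early mesoderm, was at 30.5 RPKM at day 8 and 14.9 RPKM at day 12, from 0.0823 and 0.112 in ES cells (log2 fold change 8.10, SE 1.13, adjusted p = 0.00049). It passed the filter on low values only through differentiated libraries, and so entered the counts for differentiation below. With no filter its change was 8.05 in WT, 6.70 in KO and 3.11 in DKO (edgeR adjusted p = 0.00021, 0.002 and 0.039). The DKO change minus the WT change was then -4.94 (adjusted p = 0.019). Smad6 was at 105 and 97.8 RPKM from 4.12 and 3.85 (4.73, SE 0.35, adjusted p = 3.5e-05). Bambi was at 24.3 and 15.7 RPKM from 3.17 and 2.95 (2.78, SE 0.45, adjusted p = 0.00098). For each of these genes both differentiated libraries lay above both ES libraries. Id2 rose to 64.3 and 106 RPKM (3.15, SE 0.25, adjusted p = 4.3e-05), Id3 to 122 and 121 RPKM (1.15, adjusted p = 0.0063) and Bmp7 to 14.1 and 22.3 RPKM (1.79, adjusted p = 0.0034).

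Id1 hardly moved in WT, at 136 and 167 RPKM, on either side of its ES level (-0.05, SE 0.17, adjusted p = 0.81). Id4, at 9.53 and 6.15 RPKM, also lay on both sides of its ES values (0.00, adjusted p = 0.99). Bmp4 was at 72.3 and 41.1 RPKM, below both ES libraries, and was not called (-0.84, SE 0.48, adjusted p = 0.16). Without KO day 8 or KO day 12, each of which enters the shared spread, it was called (adjusted p = 0.01 in both cases). Smad7 was at 57.7 and 116 RPKM (0.38, adjusted p = 0.36), and without day 8 its value was 1.01 (adjusted p = 0.0077). In all, 6 of 10 genes rose and none fell in WT, where 61.1% of 13433 genes were called (31.2% higher, 29.8% lower).

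The sizes rested in part on the day. Without WT day 8 the value of Bmp2 was 6.17, of Smad6 4.03, of Bambi 1.82 and of Id3 0.60. Without WT day 12 it was 9.35 for Bmp2, 5.33 for Smad6 and 3.55 for Bambi. All of these remained called. In WT the summed level of visceral endoderm markers was 206 and 364 RPKM at days 8 and 12 and that of fibroblast and mesenchyme markers 821 and 545 RPKM, against at most 2.04 and 9.19 RPKM in WT ES cells. Trophoblast markers summed to 554 and 300.4 RPKM at days 8 and 12 and endothelium markers to 204 and 72.6 RPKM. Cardiac markers summed to 39.0 and 17.1 RPKM. All of these sums were above WT ES cells. The visceral endoderm sum was higher at day 12. The fibroblast and mesenchyme, trophoblast, endothelium and cardiac sums were higher at day 8, as were Bmp2, Smad6 and Bambi. The trophoblast sum was mostly Hand1 (442 and 196 RPKM), which also stands in the list of BMP-responsive genes. Cdx2 was also higher at day 8, but Gata3, Eomes and Tfap2c were higher at day 12. Eomes and Tfap2c at day 8 lay below both WT ES libraries. Flt1 was the only endothelium marker higher at day 12. The part of these cell types in the rises was not tested.

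**Figure D4:**
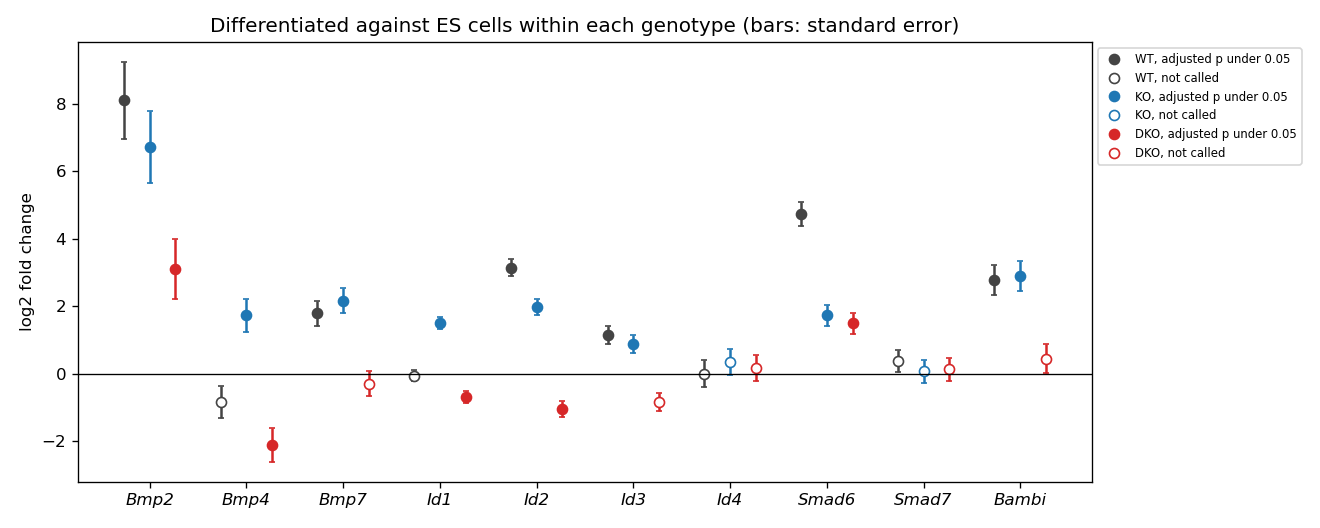
Log2 fold change of differentiated (days 8 and 12) against ES cells within each genotype, with standard errors (edgeR, all 12 libraries, day as a term). Filled points had an adjusted p under 0.05. Smad6 rose by 4.73 in WT, 1.74 in KO and 1.50 in DKO, and Id2 by 3.15 in WT and 1.98 in KO, while it lay at -1.04 in DKO.

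In KO cells 8 of 10 genes rose during differentiation and none fell, where 29.3% of all genes were called (15.8% higher, 13.5% lower). Id1 and Bmp4, which were lower in KO ES cells than in WT, were among them. Id1 went from 35.9 and 40.7 RPKM to 79.9 (day 8) and 146 RPKM (day 12), near the WT day 12 level of 167 (log2 fold change 1.51, SE 0.17, adjusted p = 0.0014). Bmp4 went from 12.9 and 14.2 to 28.6 and 54.9 RPKM (1.73, SE 0.50, adjusted p = 0.034). The Bmp4 call was lost without any 1 ES library (adjusted p between 0.059 and 0.16), and without KO day 12 the value was 0.46 (adjusted p = 0.33). Without KO day 8 it was 2.56 (adjusted p = 0.0012).

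Smad6, already higher in KO ES cells, rose to 30.2 and 62.7 RPKM (1.74, SE 0.31, adjusted p = 0.006). Bmp2 rose to 10.1 and 20.6 RPKM (6.72, SE 1.06, adjusted p = 0.0039) and Bambi to 7.80 and 23.3 RPKM (2.89, SE 0.45, adjusted p = 0.0039). Id2 rose to 23.3 and 64.3 RPKM (1.98, adjusted p = 0.0016), Bmp7 to 18.7 and 33.4 RPKM (2.17, adjusted p = 0.0053) and Id3 to 66.9 and 116 RPKM (0.89, adjusted p = 0.038). In KO, day 12 was above day 8 for all 10 genes. Id4 (0.35, adjusted p = 0.54) and Smad7 (0.07, adjusted p = 0.89) were not called. Without KO ES replicate 1 or KO ES replicate 2 only 4 of the 10 genes were called, and 1227 and 1008 genes in all instead of 3934, and without KO day 12 it was 1798. The Id3 call was also lost without any 1 ES library, and without KO day 8 (adjusted p = 0.084) or KO day 12 (0.15), and without KO day 12 the value of Bambi was 2.0 and without KO day 8 it was 3.51. The summed visceral endoderm markers of KO were 4.81 RPKM at day 8 and 402 RPKM at day 12 (6 genes, each with reads at both days). Apoa1, Ttr and Afp (281, 69.8 and 45.0 RPKM) made up most of the day 12 sum. Amn was at 1.35 and 1.04 RPKM at days 8 and 12, and Cubn at 0.0778 and 1.69 RPKM. The fibroblast and mesenchyme markers summed to 21.4 and 205 RPKM. The part of both lists in the difference between the days was not tested.

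In DKO cells the direction differed by gene. Bmp2 and Smad6 rose, Bmp4, Id1 and Id2 fell, 5 of 10 called where 19.6% of all genes were (10.4% higher, 9.22% lower). Id2 went from 100 and 93.5 RPKM to 37.5 and 58.5 RPKM (-1.04, SE 0.23, adjusted p = 0.018), and Id1 from 239 and 214 to 128 and 155 RPKM (-0.68, SE 0.17, adjusted p = 0.026). Bmp4 fell from 123 and 107 RPKM to 45.1 RPKM at day 8 and 13.6 RPKM at day 12 (-2.10, SE 0.50, adjusted p = 0.024). Smad6 rose to 7.43 and 19.2 RPKM (1.50, SE 0.31, adjusted p = 0.015) and Bmp2 to 0.873 and 9.90 RPKM (3.11, SE 0.90, adjusted p = 0.045).

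None of these 5 calls held without DKO ES replicate 1 or without DKO ES replicate 2, which also lowered the count over all genes from 2638 to 1382 and 527. That count was 1528 and 1535 without WT ES replicate 1 or 2, 1726 without KO ES replicate 1, 1588 and 1557 without DKO day 8 or 12, and 4561 and 4543 without WT day 8 or 12. Without DKO day 12 Bmp2 was at 0.89 (adjusted p = 0.36) and Bmp4 at -1.32 (adjusted p = 0.1), and 1 of the 10 genes, Id3 at -1.31 (adjusted p = 0.025), was called. Without DKO day 8 Bmp2 was at 4.38 and Bmp4 at -3.11. With the ES replicate number as a block, or without either WT ES library, 3 of the 10 genes were called, Bmp4, Id2 and Smad6. Id3 was at 42.9 RPKM at day 8 and 104 RPKM at day 12, below both DKO ES libraries (-0.84, SE 0.27, adjusted p = 0.059). Bambi stayed low, at 2.49 and 3.77 RPKM (0.44, SE 0.43, adjusted p = 0.49). Id4 (22.1 and 18.3 RPKM), Bmp7 (25.6 and 15.0 RPKM) and Smad7 (110 and 65.0 RPKM) were not called. The fibroblast and mesenchyme markers of DKO summed to 9.47 and 23.3 RPKM, and the visceral endoderm markers to 53.1 and 421 RPKM. Most of the fibroblast and mesenchyme sum was Thy1 at day 8 (7.94 RPKM) and Pdgfra at day 12 (21.35 RPKM). The part of both lists in the DKO values was not tested.

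The test of the difference itself, mutant change minus WT change, was passed by 4 of 10 genes in KO, where 16.3% of all genes were called (9.09% higher, 7.24% lower), and by 6 of 10 in DKO, where 42% were. In KO the change of Id1 exceeded that of WT by 1.56 (SE 0.24, adjusted p = 0.0068) and that of Bmp4 by 2.57 (SE 0.70, adjusted p = 0.041), while Smad6 (-2.99, SE 0.44, adjusted p = 0.0062) and Id2 (-1.17, SE 0.33, adjusted p = 0.046) rose less than in WT. The Bmp4 and Id2 calls were lost without any 1 ES library, and the Id1 and Smad6 calls held there. Over all genes the count, 2193, fell to 433 and 393 when WT ES replicate 1 or 2 was left out and to 598 and 534 when KO ES replicate 1 or 2 was, and it was 3889 without WT day 12. Without KO day 12 the Bmp4 value was 1.31 and without WT day 8 that of Smad6 was -2.28. In DKO 6 genes lagged WT and none exceeded it (20.9% of all genes were called lower). Id2 differed by -4.19 (SE 0.34, adjusted p = 0.00014), Bmp2 by -4.99 (SE 1.43, adjusted p = 0.023), Smad6 by -3.23 (SE 0.45, adjusted p = 0.0011) and Id3 by -1.99 (SE 0.38, adjusted p = 0.0045). Bmp7 (-2.07) and Bambi (-2.35) also passed. Without WT ES replicate 1, 3 genes were called, Id2, Id3 and Smad6, and the counts over all genes were 3597 and 3550 without WT ES replicate 1 or 2 against 5639. The Bmp2 call was lost without any 1 WT or DKO ES library (adjusted p between 0.06 and 0.078), and its value lay between -3.33 without WT day 8 and -6.91 without DKO day 12. The Bmp7 call was lost without WT ES replicate 1 (adjusted p = 0.051) or DKO ES replicate 1 (0.05) and its value was -1.35 without DKO day 12. The Bambi call was lost without WT ES replicate 1 (0.052) or 2 (0.059), DKO ES replicate 2 (0.057) or DKO day 8 (0.063), and its value was -1.37 without WT day 8. Id2 and Bmp7 started from higher levels in DKO ES cells, as given above. At days 8 and 12 Bmp7 overlapped between DKO and WT, and Id2 was lower in both DKO libraries than in both WT libraries.

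Among differentiated cells no gene of the 10 passed the test against WT. Of all 12900 genes 0% were called in KO and 2.19% in DKO (1.52% higher, 0.674% lower), with 1 library per genotype and day. Unadjusted, 2 of the 10 genes had a p under 0.05 in KO and 4 in DKO (3003 and 3970 of all genes), and DESeq2 called 2 and 4, limma on log2(RPKM + 1) 0 and 1. Smad6, Bambi and Bmp2 had the largest differences in DKO. Smad6 was at 7.43 and 19.2 RPKM in DKO against 105 and 97.8 in WT (-3.07, SE 0.43, adjusted p = 0.051), and Bambi at 2.49 and 3.77 against 24.3 and 15.7 (-2.74, SE 0.58, adjusted p = 0.072). Bmp2 was at 0.873 and 9.90 against 30.5 and 14.9 (-2.70, SE 1.22, adjusted p = 0.21), and was called by DESeq2 (0.011) and in the fit over all 12 libraries (0.044). Its value was -1.05 and -4.24 without WT day 8 or 12, and -1.14 and -4.70 without DKO day 8 or 12. Smad6 in DKO was called under 10 of 15 alternatives, and without DKO day 8 or 12 its adjusted p was 0.3 and 0.25. The count over all genes in DKO, 283, was 181 without WT day 8, 1804 without WT day 12, and 0 without any 1 of the KO or DKO libraries. Without WT day 8 or 12, 1 and 2 of the 10 genes were called. Id4 was higher in DKO at both days (22.1 and 18.3 RPKM against 9.53 and 6.15; 1.42, SE 0.33, adjusted p = 0.079).

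Between days 8 and 12 no gene was called either (0% of all genes, 1582 with an unadjusted p under 0.05, 563 by DESeq2 and 0 by limma on log2(RPKM + 1)). Id2 had the largest value relative to its error, higher at day 12 in all 3 genotypes (0.94, SE 0.23, adjusted p = 0.37, and 0.035 by DESeq2). Id1 was also higher at day 12 in all 3. Bmp4 was lower at day 12 in WT and DKO and higher in KO.

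Across all 12 libraries the widest spans were those of Bmp2 (370 times between its lowest and highest library) and Smad6 (27.2 times), and the narrowest those of Smad7 (2.28 times) and Id3 (2.95 times). Bmp2, Smad6 and Bambi varied most alike, with Pearson's r of log2(CPM + 1) between 0.88 and 0.9 for their 3 pairs. Id2 followed Id3 (0.87) and Bmp7 (0.88), and Id1 followed Bmp4 (0.77), whereas Smad7 had no r above 0.53 with any of the others. These describe 12 libraries that share genotypes and states. The 5 genes most like Id1 among 9576 genes were Extl2 (0.943), Laptm4b (0.939), Akr1a1 (0.926), Zmym5 (0.922) and Cnih4 (0.921). For Bmp4 they were Foxp1 (0.887), Stx1a (0.886), Zfp647 (0.872), Zfp330 (0.872) and Rnf6 (0.867).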

How the data were processed

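RNA-seq was read in 12 libraries (3 genotypes, ES cells and days 8 and 12). The reads had been aligned with Bowtie2 to mm9, per the submitters' processing notes; neither the counting tool nor its use of strand is given in the sources used here. Per model, the authors deposited read counts (29257 transcript models) and RPKM values for the same models, whose scaling totals exceed the reads counted in genes. Levels printed are not the deposited RPKM: they were recomputed from the counts with TMM scaling and are 1.67 to 1.97 times the deposited RPKM.

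The row of the longest model stood for each symbol. A gene entered a fit when its deposited RPKM reached 1 in 2 or more of the libraries fitted, and the test was that of edgeR 4.0.16 (quasi-likelihood, TMM, R 4.3.3, Benjamini-Hochberg over all genes tested, called at an adjusted p under 0.05). ES cells were fitted on 6 libraries, the change during differentiation and its difference between genotypes on all 12 with day as a term, and differentiated cells on 6 with day as a term. SE values were derived from the estimate and its F statistic (estimate over root F). Scripts were tested on simulated counts.

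Alternatives were DESeq2 1.42.0, limma 3.58.1 on log2(RPKM + 1) and log2(RPKM + 0.1), DESeq2-type (RLE) scaling, no filter, a filter at 5 RPKM, the row with most reads, the replicate number as a block, a fit over all 12 libraries, no day term, and each library left out. With 1 library left in an arm, its spread was taken from the other groups. From each pathway list up to 4 genes with the smallest adjusted p against WT in ES cells were named, and for Id1 and Bmp4 the 5 genes most correlated, of mean RPKM at least 5. The 10 genes, the lists and the tests were chosen with earlier results of these data known.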

Additional observations from a re-analysis of the deposited data

Results flagged for a closer look

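The change from ES to differentiated cells differed between a mutant and WT, by the test of the difference itself (edgeR, mutant change minus WT change on the log2 scale), in 10 cases. In KO it was 2.57 for Bmp4 and 1.56 for Id1, whose levels rose from a low ES level, and -1.17 for Id2 and -2.99 for Smad6, which rose less than in WT. In DKO it was -4.99 for Bmp2, -2.07 for Bmp7, -4.19 for Id2, -1.99 for Id3, -3.23 for Smad6 and -2.35 for Bambi. KO and DKO are set against the same WT libraries. The summed ES cell markers of the differentiated libraries were 382 and 337 RPKM in WT, 2596 and 1162 in KO and 3798 and 1872 in DKO, and their part in these differences was not tested.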

How the results depend on the processing

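Each of the 10 genes was refitted in each comparison under each alternative, and the counts here are of refits, not of genes. Of the refits of calls, 747 kept the direction and call, 87 kept the direction and lost the call, and none reversed. Each call for differentiation in DKO was lost under some of the alternatives. Of the refits of values not called, 892 stayed so in the same direction, 50 became called and 56 changed sign without being called. KO against WT in ES cells gave 5138 genes, 3265 with a filter at 5 RPKM and 2020 in a fit over all 12 libraries, and DKO against WT gave 7688 and, in that fit, 5089. For the difference in change in KO, DESeq2 called 3307 genes against 2193. The differentiated libraries depended most on the tool. KO against WT gave 0 genes, 7 with no filter, 1834 by DESeq2, 136 and 161 by limma (pseudocounts 1 and 0.1), 3697 in the 12-library fit and 1 with no day term, and of the 10 genes DESeq2 and the 12-library fit called 2 each. DKO against WT gave 283 genes, 3140 by DESeq2, 714 and 911 by limma, 5087 in the 12-library fit and 4 with no day term. Of the 10 genes it called 0, 1 with RLE scaling, with no filter, with a filter at 5 RPKM, with the row of most reads and by either limma fit, 4 by DESeq2 and 6 in the 12-library fit. Day 12 against day 8 gave 0 genes and 563 by DESeq2, and 0 and 1 of the 10. Limma on log2(RPKM + 1) moved the median of all genes to 0.104 within WT and 0.14 within KO, from 0.023 and 0.017.

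ES replicate numbers did not pair the libraries (correlations of the replicate differences -0.0056, -0.048 and -0.099). With the replicate number as a block, differentiation in DKO gave 1705 genes against 2638 and 3 of the 10 against 5, and the difference in change in KO gave 1263 against 2193 and 2 against 4. In differentiated cells the day shared by the genotypes was already a term of the fit, and the counts with no day term are given above.

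Leaving out 1 library at a time, the genes called ranged from 3203 to 6272 for KO against WT in ES cells, 5924 to 7721 for DKO against WT, 6506 to 8168 for DKO against KO, 5885 to 8620 for differentiation in WT, 1008 to 5662 in KO and 527 to 4561 in DKO, 393 to 3889 and 3550 to 6765 for the difference in change in KO and DKO, and 0 to 1804 for DKO against WT in differentiated cells. Of the 10 genes the ranges were, in the same order, 3 to 5, 5 to 8, 7 to 8, 6 to 7, 4 to 8, 0 to 6, 2 to 4, 3 to 8 and 0 to 2. Depth limits Bmp2 in ES cells, with 5 to 30 reads a library. The cause of these shifts was not tested.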
